A study of Mus musculus with 15 samples.

Results

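The Prader-Willi and Angelman imprinted cluster of mouse chromosome 7 was followed in Purkinje cells (PCs) through the 6 listed genes *Peg12*, *Ndn*, *Magel2*, *Mkrn3*, *Snrpn* and *Ube3a*, out of 38561 genes in the count tables. *Peg12* was included for its steep fall in these same samples, and the others for their position in the cluster. By their Ensembl identifiers in GENCODE M21, 5 of the 6 symbols had counts. The M21 identifiers of *Snrpn* and of its upstream partner *Snurf* were not in the files. The tables instead held ENSMUSG00000000948, which M21 calls *Gm38393*. It lies on the same strand at the *Snrpn* locus, covers all 216 exon bases of *Snurf* and shares 589 of the 2159 exon bases of *Snrpn* (27.3%). This entry is reported as the Snrpn locus row, and which transcripts of the locus it counts depends on the authors' annotation, whose release was not given in the sources used here.

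PCs had been laser-captured from cerebella of male mice, whose strain the labels spell C56/BL6 and the study's methods C57/BL6, at birth (P0) and at P4, P8, P14 and P21, the number being the postnatal day. Each age had 3 biological replicates, which makes 15 libraries. No genotype or treatment differed between the ages, so postnatal age was the only comparison. Individual PC soma were collected from P4 to P21, whereas clusters of PCs were cut out at P0, and the way of capture therefore cannot be told apart from age at the first time point. The mice were of 1 strain and the counts pool both parental alleles, so which allele was transcribed was not measured.

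Genes of this cluster are imprinted: a mark set in the parental germline lets only the paternal or only the maternal copy be used. *Ndn*, *Magel2*, *Mkrn3*, *Peg12* and *Snrpn* are transcribed from the paternal copy, and loss of that copy in the homologous human region causes Prader-Willi syndrome. *Ube3a* is silenced on the paternal copy in neurons by a long antisense transcript, and loss of its maternal copy causes Angelman syndrome. The imprinting centre that governs the region lies at the start of *Snrpn*.

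On chromosome 7 of GRCm38, *Ube3a* (ENSMUSG00000025326) ran on the plus strand from 59228750 to 59311536, and the Snrpn locus row on the minus strand from 59974149 to 60005064. *Ndn* (ENSMUSG00000033585) lay 2341.5 kb further on, at 62346569 to 62350262 on the plus strand. It was followed by *Magel2* (ENSMUSG00000056972) at 62377010 to 62381640 on the plus strand, *Mkrn3* (ENSMUSG00000070527) at 62417593 to 62420139 on the minus strand and *Peg12* (ENSMUSG00000070526) at 62461871 to 62464510 on the minus strand. The last 4 genes thus formed a tight group, with gaps of 26.7, 36.0 and 41.7 kb. All 6 are annotated as protein-coding.

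The start-site sequences of 4 genes are shown because their transcripts took different courses with age: *Peg12* and *Ndn* had falling slopes, the Snrpn locus row rose and *Ube3a* passed no test. They are the RefSeq promoter windows of GRCm38.p6, from 250 bases before to 50 bases after the start, written 5′ to 3′ on the gene's strand, with every CG dinucleotide in capitals.
Peg12, chr7:62464461-62464760, minus strand: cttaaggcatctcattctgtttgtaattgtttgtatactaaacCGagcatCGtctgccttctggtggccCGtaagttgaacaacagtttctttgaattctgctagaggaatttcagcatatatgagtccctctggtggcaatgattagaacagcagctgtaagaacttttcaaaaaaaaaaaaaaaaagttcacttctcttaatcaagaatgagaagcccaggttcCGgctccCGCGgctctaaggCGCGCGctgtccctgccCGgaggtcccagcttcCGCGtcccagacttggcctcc
Ndn, chr7:62348027-62348326, plus strand: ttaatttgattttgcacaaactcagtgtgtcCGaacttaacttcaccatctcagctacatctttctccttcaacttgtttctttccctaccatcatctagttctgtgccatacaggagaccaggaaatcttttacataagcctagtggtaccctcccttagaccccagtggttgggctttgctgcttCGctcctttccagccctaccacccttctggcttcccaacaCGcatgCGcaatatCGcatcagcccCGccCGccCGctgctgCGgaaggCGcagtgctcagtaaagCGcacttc
Snrpn, chr7:60005150-60005449, minus strand: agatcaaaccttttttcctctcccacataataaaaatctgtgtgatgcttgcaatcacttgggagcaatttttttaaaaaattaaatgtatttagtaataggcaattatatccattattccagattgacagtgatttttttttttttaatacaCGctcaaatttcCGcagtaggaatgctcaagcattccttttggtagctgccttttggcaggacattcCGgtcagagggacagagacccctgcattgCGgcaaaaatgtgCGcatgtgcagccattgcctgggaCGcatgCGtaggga
Ube3a, chr7:59228500-59228799, plus strand: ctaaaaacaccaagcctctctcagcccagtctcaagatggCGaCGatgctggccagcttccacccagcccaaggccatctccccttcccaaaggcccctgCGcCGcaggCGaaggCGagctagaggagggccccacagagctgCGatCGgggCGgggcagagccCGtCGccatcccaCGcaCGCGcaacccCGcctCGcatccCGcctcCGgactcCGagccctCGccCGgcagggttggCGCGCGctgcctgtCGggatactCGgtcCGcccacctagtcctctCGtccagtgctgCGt
All 6 genes had a RefSeq window, and *Snrpn* had 4. The *Ube3a* window held 29 CG, against a median of 7 over the 32851 mouse promoters of the same length, and 12.9% of promoters held as many. *Peg12* had 12 CG, *Ndn* had 11 and the *Snrpn* start printed here had 7. The palindrome CGCATGCG, the core of the NRF1 recognition sequence, stood in the *Ndn* window and in all 4 *Snrpn* windows, and in none of the other windows of the cluster. It was searched for after the sequences had been read and occurs in 1.87% of all promoters. The *Snrpn* windows not printed here resemble one another over long stretches, so the 4 are not independent cases. The RefSeq start of *Ndn* lies within the longer M21 model of this single-exon gene.

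The libraries held 3409371 to 7814951 counts on genes, so a gene without counts in a library lay below 0.384 to 0.880 counts per 1000000 (3 counts, counting error only). The summed level of 6 PC markers (*Ppp1r17*, *Car8*, *Pcp4*, *Pcp2*, *Itpr1* and *Calb1*) rose from 5340 ± 737 CPM at P0 to 42941 ± 5287 CPM at P21 (SD, n = 3), with all 6 rising and none at 0. CPM are counts per 1000000 of the effective library size. Summed Bergmann glia and astrocyte markers were at 4665 ± 859 CPM at P0, highest at P8 (9162 ± 869 CPM) and lowest at P21 (4131 ± 780 CPM). Of these markers, 8 of 8 had counts at every age, 2 fell and 3 rose. Granule neuron markers reached 559 CPM at most, with *Atoh1* at 0 throughout. Interneuron, endothelial and microglial markers stayed at or below 75.8 CPM in summed mean level. Oligodendrocyte markers rose from 22.4 ± 11.8 to 569 ± 241 CPM, with *Mag* and *Mobp* at 0 at P0. In such captured pools, fewer cells of a type and less RNA per cell cannot be told apart.

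**Figure D1:**
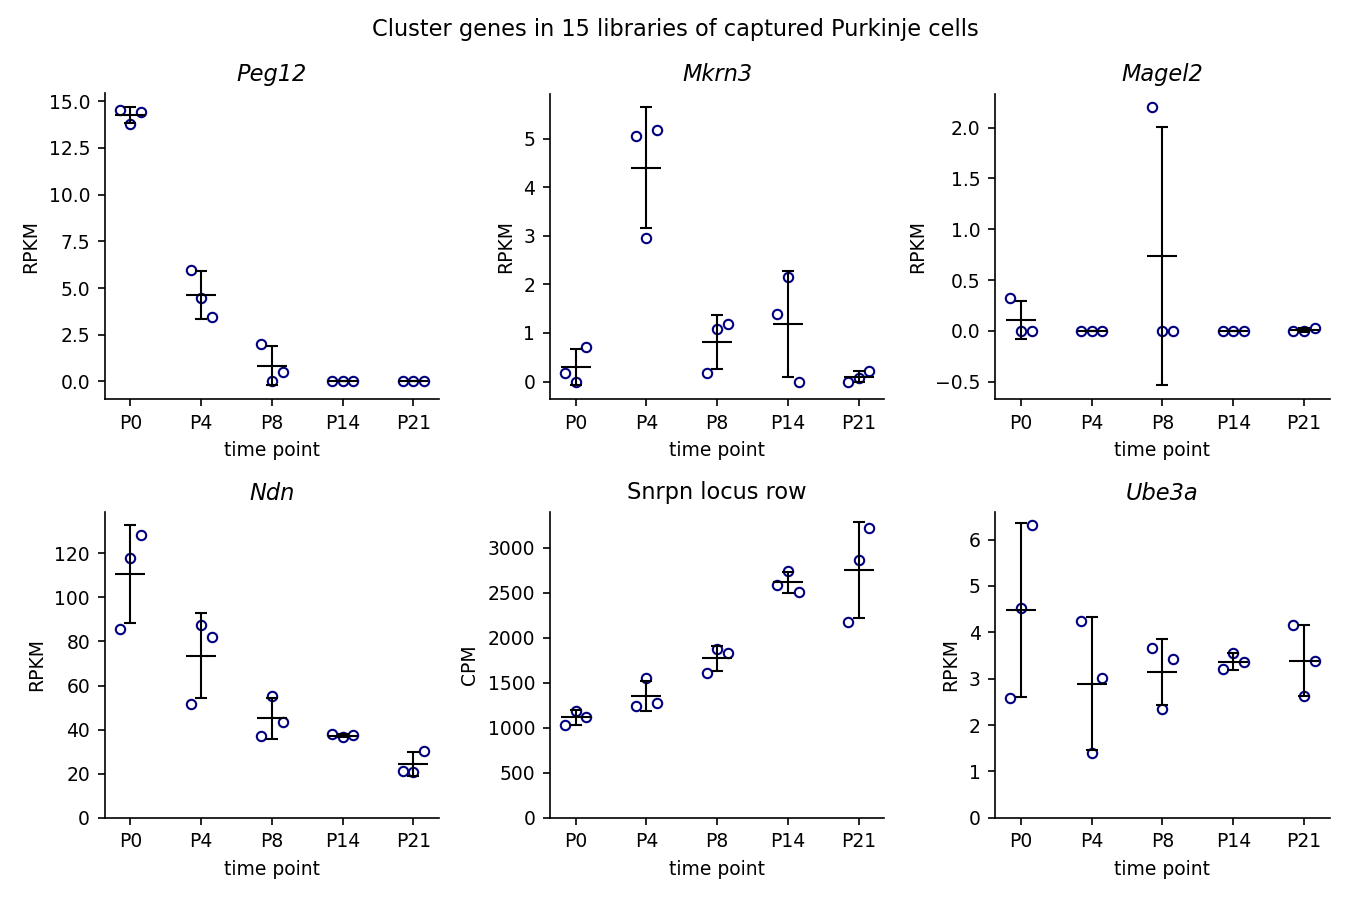
Level of each cluster gene by time point, in RPKM (counts scaled to exon length and to total counts) or, for the Snrpn locus row, CPM. Circles are libraries (3 per time point), and the horizontal line and bar give the mean and SD. *Peg12* is at 0 in all 6 libraries of P14 and P21, *Ndn* goes from 110.8 to 24.3 RPKM, and the Snrpn locus row climbs from 1114 to 2751 CPM.

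Across the ages, *Ndn* fell and the Snrpn locus row rose, while *Mkrn3* and *Ube3a* did not pass the test for a trend with postnatal day. Of these 4 rows, which were chosen by position, 1 was called falling and 1 rising, where 14.1% of the 14293 genes tested were called falling, 12.1% rising and 26.2% either way (edgeR quasi-likelihood test, Benjamini-Hochberg adjusted p below 0.05). A change in any pattern over the 5 ages was called for the same 2 rows, against 19.3% of all genes tested. CPM ranges of P0 and P21 did not overlap for *Ndn* and the Snrpn locus row, which held for 37.6% of all genes. In the steps between neighbouring ages, edgeR called 0 of the 4 rows in each, against 1.97% of all genes from P0 to P4, 1.13% from P4 to P8, 2.67% from P8 to P14 and 0.329% from P14 to P21. At an unadjusted p below 0.05 the rows passing were 1, 2, 1 and 0 in these steps, and limma-voom called 0, 0, 1 and 0. The shares of all genes under these settings are not given here, so these counts cannot be compared with a background. *Magel2* had too few counts to enter the test. *Peg12* is given as a description only, because its fall was the reason to include it.

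*Ndn* encodes necdin, a MAGE-family protein of postmitotic neurons that restrains growth and cell death. Its counts at P0 were 1486, 1956 and 2093, or 286, 388 and 424 CPM. The 3 libraries of P4 had 177, 326 and 279 CPM, and those of P8 129.8, 199 and 155 CPM. The P4 values reached into both neighbouring ages. The P14 libraries were close together, at 153, 141 and 149 CPM, and those of P21 lay below them at 89.8, 91.3 and 127 CPM. The share of all genes that separate between P14 and P21 is not given here. The slope was -0.084 log2 per day (SE 0.011, 95% confidence interval -0.11 to -0.060), which is a 3.40-fold fall over the 21 days (edgeR adjusted p = 2.16e-05, any pattern 0.000247). Its largest step, P4 to P8, was -0.69 on the log2 scale (SE 0.25, edgeR adjusted p = 0.247).

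Per length, *Ndn* stood above the other 4 genes with a known exon length at every age, and its range overlapped none of theirs. At P0 its mean of 110.8 ± 22.2 RPKM (SD, n = 3) exceeded the means of 97.3% of the 20560 genes with a count and a length, and at P21 its mean of 24.3 ± 5.40 RPKM exceeded 89.8%. *Ndn* thus remained a well expressed gene in PCs after its fall.

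*Peg12*, also called *Frat3*, encodes a FRAT-family protein that binds the kinase GSK3 in Wnt signalling. Its counts were 180, 163 and 168 at P0, 60, 92 and 49 at P4, and 25, 0 and 7 at P8. In the 6 libraries of P14 and P21 it had 0 counts of 32948848 in all. A limit of 3 counts over these libraries is 0.0911 counts per 1000000 (counting error only, replicates pooled). P0, P4 and P8 did not overlap in CPM. The shares of all genes that separate between these ages are not given here. The means were 14.2 ± 0.426 RPKM at P0, 4.63 ± 1.27 at P4 and 0.835 ± 1.05 at P8 (SD, n = 3). Pooled, the P0 libraries had 37.6 counts per 1000000, 413-fold higher than this limit of 3 counts over the P14 and P21 libraries. Variation between replicates is not in that figure, which is no bound on the fold change. Its fitted slope of -0.60 log2 per day was the 9th steepest fall of the 14293 genes tested, a rank that restates why it was included. The slope was -0.48 in limma-voom, -0.53 in the DESeq2 likelihood ratio test and -0.70 without the P0 libraries. At P0 *Peg12* was above 82.8% of genes with a count and a length, well below *Ndn* and above *Ube3a* without overlap.

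Markers of dividing cells fell over the same ages as *Peg12*. Summed over *Mki67*, *Top2a*, *Ccnb1* and *Cdk1*, their P0 level of 405 ± 16.9 CPM (SD, n = 3) had dropped to 198 ± 73.5 CPM in the P4 libraries and to 64.9 ± 7.44 CPM in those of P8. It was 6.32 ± 8.35 CPM in the P14 libraries and 1.28 ± 1.14 CPM in those of P21, and all 4 fell. PCs themselves have left the cell cycle before birth. The part of such cells in the *Peg12* values was not tested.

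*Mkrn3* encodes a makorin RING-type ubiquitin ligase, whose loss in humans brings on early puberty. Its counts stood highest at P4, at 49, 59 and 71, and were 2, 0 and 8 at P0. They were 2, 14 and 16 at P8, 21, 30 and 0 at P14, and 0, 1 and 4 at P21. The P4 libraries (2.96 to 5.18 RPKM) overlapped neither P0 (0 to 0.713 RPKM) nor P8 (0.167 to 1.18 RPKM), and the P14 libraries were split, with 1 of the 3 at 0. The share of all genes whose ranges separate between P0 and P4, or between P4 and P8, is not given here. The fitted step from P0 to P4 was 3.94 on the log2 scale (SE 1.73, edgeR adjusted p = 0.296) and that from P4 to P8 -2.40 (SE 1.61, adjusted p = 0.65). The slope was -0.15 log2 per day (SE 0.10, 95% confidence interval -0.36 to 0.067, edgeR adjusted p = 0.323, any pattern 0.172). A change in any pattern was not called by limma-voom (adjusted p = 0.0731) or the DESeq2 likelihood ratio test (adjusted p = 0.0627) either.

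*Magel2* encodes a MAGE protein that works with the ubiquitin ligase TRIM27 on the WASH complex of endosomes. It had counts in 3 of the 15 libraries: 7 in P0 replicate 1, 48 in P8 replicate 1 and 1 in P21 replicate 3. Its level was therefore carried by a single library, with 2.20 RPKM in P8 replicate 1 and 0 in the other P8 replicates. No fold change is given for it. The same P8 library also had the most *Peg12* counts of its age, 25 against 0 and 7. Its *Ube3a* level was the highest of P8 too (71.8 CPM). Its levels of *Mkrn3* (0.403 CPM), *Ndn* (129.8 CPM) and the Snrpn locus row (1609 CPM) were the lowest of P8.

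The Sm ring is the protein ring that holds the small nuclear RNAs of the spliceosome. The Snrpn locus row counts transcripts from the locus of SmN, the neuronal alternative to SmB in this ring. It had 1032, 1190 and 1121 CPM at P0 and 1243, 1550 and 1271 CPM at P4. At P8 it had 1609, 1870 and 1828 CPM, and at P14 2589, 2741 and 2509 CPM. Each of these ages lay above the one before without overlap. The ranges of P8 and P14 did not overlap, in either direction, for 25.5% of all genes tested. The shares for P0 with P4 and for P4 with P8 are not given here. The P21 libraries spread widely, at 2174, 2860 and 3220 CPM, and overlapped P14. The slope was 0.067 log2 per day (SE 0.0083, 95% confidence interval 0.050 to 0.085), which is a 2.66-fold rise over the 21 days (edgeR adjusted p = 7.05e-06, any pattern 1.93e-05). The step from P8 to P14 was 0.56 on the log2 scale (SE 0.15) and narrowly missed the threshold (edgeR adjusted p = 0.0603). It passed with DESeq2 size factors (adjusted p = 0.0472) and in limma-voom (0.00965), but not without the filter on low counts. With single libraries left out, it passed only without P4 replicate 2 (0.0461), P21 replicate 1 (0.0339) or P21 replicate 3 (0.0421). None of these libraries belongs to P8 or P14, the ages of this step. Leaving out any single library of P8 or P14 kept the step above the threshold. PC markers rose over the same ages, and their part in this rise was not tested.

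*Ube3a* encodes E6-AP, the founding HECT ubiquitin ligase. Its libraries had 48.1, 83.1 and 117 CPM at P0, 81.9, 29.2 and 57.4 CPM at P4, and 71.8, 47.1 and 68.4 CPM at P8. The P14 libraries lay close together at 72.2, 77.0 and 73.9 CPM, and P21 had 97.8, 63.8 and 78.3 CPM. The spread between replicates of P0 and of P4 was wider than the differences between the means of the ages. The slope was 0.0069 log2 per day (SE 0.016, edgeR adjusted p = 0.794, any pattern 0.724), and its 95% confidence interval ran from -0.026 to 0.040 log2 per day. A change inside this interval could not be seen, and the direction of the slope itself turned when P21 replicate 1 was left out (-0.00039) or day was put on a log2 scale.

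In M21, 1803 of the 20626 merged exon bases of *Ube3a* (8.74%) lie opposite exons of *Snhg14*, the antisense transcript of the locus. These antisense genes were not analysed here, and the library kit does not mark strand. Reads of *Ube3a* and of these genes in the shared stretches therefore cannot be told apart. The long merged model also set the level of *Ube3a* per length. Its mean was 4.48 ± 1.87 RPKM at P0 and 3.39 ± 0.770 RPKM at P21 (SD, n = 3) over all merged exons, and 9.37 and 7.10 RPKM over the 9856 bases of its longest protein-coding transcript. RPKM rest on total counts and not on effective library sizes, and the mean CPM of *Ube3a* were 82.6 at P0 and 80.0 at P21. On either length, the order at P0 was *Ndn*, *Peg12*, *Ube3a*, *Mkrn3* and *Magel2*, and the last pair overlapped. At P4 *Peg12*, *Mkrn3* and *Ube3a* overlapped one after the other on merged exons, and on the shorter length the mean of *Ube3a* (6.05 RPKM) moved above both. From P8 to P21 *Ube3a* took the place below *Ndn*, without overlap with *Mkrn3*, *Peg12* or *Magel2*.

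The Sm ring genes took the opposite course to the Snrpn locus row. Of the 7 other genes for ring proteins, *Snrpb* among them, 6 fell with age and 0 rose, where 14.1% of all genes tested fell. Their median slope was -0.044 log2 per day beside -0.0077 over all genes tested. *Snrpg* went from 50.9 ± 8.12 CPM at P0 to 9.35 ± 4.55 CPM at P21 (SD, n = 3), a fitted 6.19-fold fall (edgeR adjusted p = 2.97e-05). *Snrpe* went from 295 ± 45.1 to 94.3 ± 25.7 CPM (3.22-fold, adjusted p = 8.56e-06) and *Snrpd2* from 304 ± 51.0 to 153 ± 33.5 CPM (2.13-fold, adjusted p = 0.00051). *Snrpb*, the gene of the widely used SmB and the closest relative of *Snrpn*, went from 167 ± 47.1 to 78.4 ± 34.7 CPM (1.89-fold, adjusted p = 0.0219). *Snrpd3* had the smallest slope, -0.025 log2 per day (SE 0.011, adjusted p = 0.113). Without the P0 libraries 4 of the 7 were called falling, and 5 without P0 replicate 3, P21 replicate 1 or P21 replicate 2. Over the same ages the summed dividing-cell markers fell from 405 to 1.28 CPM and the summed PC markers rose from 5340 to 42941 CPM, and their part in the Sm ring values was not tested.

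**Figure D2:**
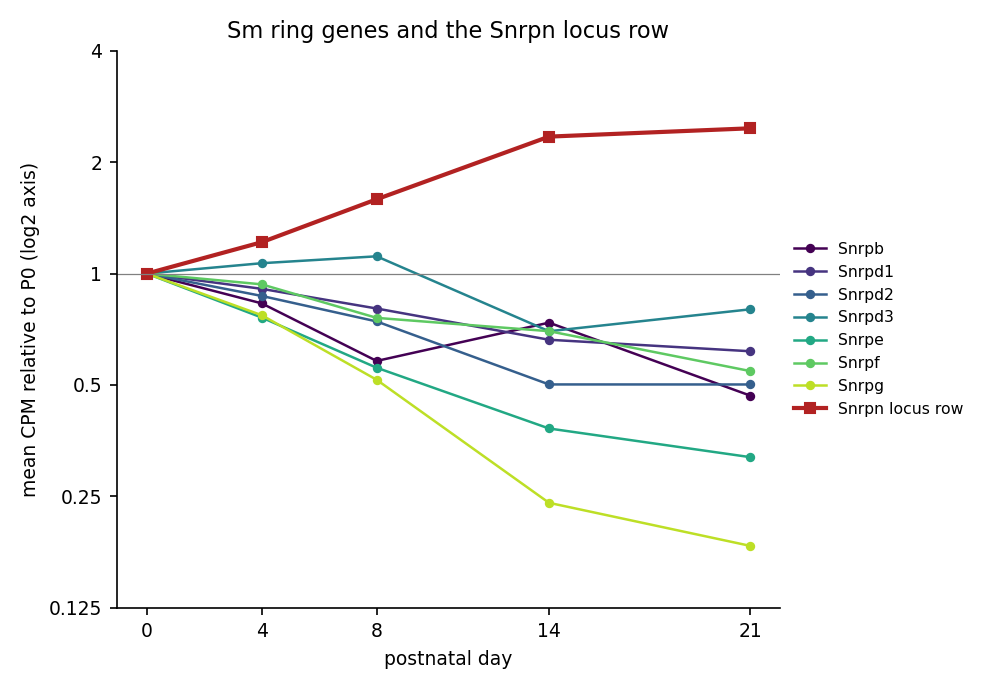
Mean CPM of the 7 Sm ring genes and of the Snrpn locus row at each postnatal day, relative to the P0 mean (log2 axis, n = 3 per point, no error shown). The Snrpn locus row is the line that climbs, and *Snrpg* and *Snrpe* end lowest.

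The balance between SmN-locus and SmB transcripts was followed as the ratio of counts in the same library, which needs no scaling between libraries. The ratio was 8.85, 6.75 and 5.36 at P0, 10.1, 10.8 and 8.47 at P4, and 16.1, 19.3 and 19.3 at P8. It was 17.4, 23.6 and 23.8 at P14 and 46.8, 38.9 and 27.9 at P21. The P0 and P4 libraries overlapped, as did those of P8 and P14, whereas P8 stood above P4 and P21 above P14. The mean ratio went from 6.99 ± 1.76 at P0 to 37.9 ± 9.50 at P21 (SD, n = 3). Over the 15 libraries the log2 ratio rose with postnatal day with Pearson's r = 0.943 and Spearman's rho = 0.949 (two-sided permutation test, p = 1e-05 for each and adjusted over these tests 1e-05, the smallest that 100000 permutations can give). The 3 P21 libraries were equally far from the median day. Leaving out any 2 of them gave r = 0.945, 0.938 or 0.910 (permutation p = 1e-05, 1e-05 and 4e-05), and leaving out all 3 gave r = 0.913 (permutation p = 7e-05). Both genes of the ratio had passed the trend test on their own, and the ratio adds no independent evidence.

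**Figure D3:**
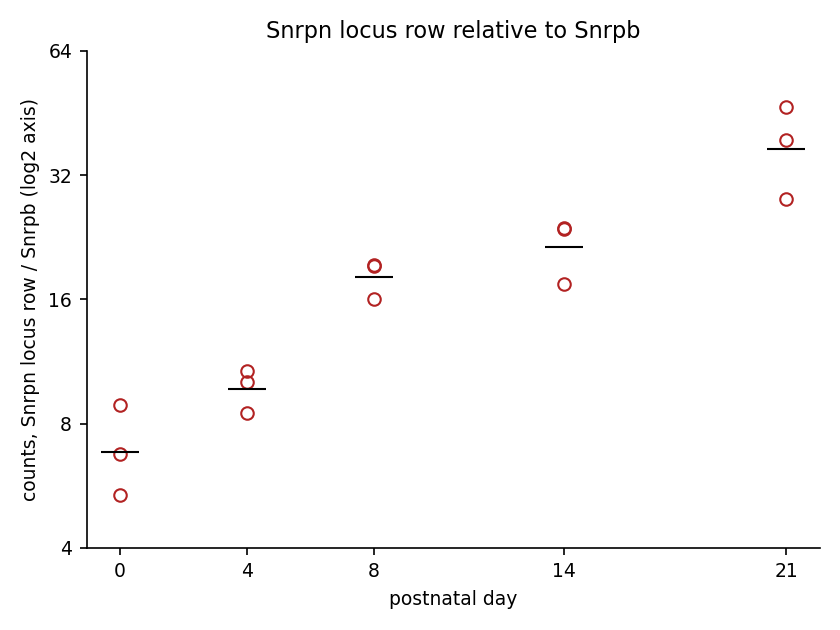
Ratio of counts of the Snrpn locus row to counts of *Snrpb* in each library (circles, n = 3 per day, log2 axis) against postnatal day, with the mean of the log2 ratio as a line. All P21 libraries (27.9 to 46.8) lie above all others.

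Among 13 genes that flank the cluster on chromosome 7, 10 had enough counts to be tested, of which 1 fell, 1 rose and 8 were not called, with a median slope of -0.0029 log2 per day. That is close to the 14.1% falling and 12.1% rising of all genes tested. Without P21 replicate 1, or on a log2 scale of days, 2 fell. *Gabra5*, a GABA-A receptor subunit gene, fell from 24.3 ± 5.65 CPM at P0 to 0.111 ± 0.193 CPM at P21 (SD, n = 3, edgeR adjusted p = 0.00198), with 6 of 15 libraries at 0. Its neighbour *Gabrg3* (slope 0.060 log2 per day, adjusted p = 0.799) did not pass. *Klf13*, a zinc finger transcription factor gene, rose 3.08-fold from 98.4 ± 32.7 to 306 ± 53.4 CPM (adjusted p = 0.00103). *Oca2*, *Atp10a* and *Chrna7* did not pass the filter on low counts.

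Relatives of the cluster genes elsewhere in the genome were called about as often as other genes. Of the 10 paralogs, 9 were tested, 2 fell (1 without the P0 libraries) and 1 rose, beside 26.2% of all genes called in either direction. The MAGE genes *Maged2* (221 ± 40.8 to 32.9 ± 15.1 CPM, 7.96-fold, edgeR adjusted p = 1.84e-06) and *Mageh1* (83.2 ± 11.4 to 33.6 ± 4.52 CPM, 2.77-fold, adjusted p = 0.00413) fell like *Ndn*, and *Magee1* rose (64.1 ± 7.54 to 137 ± 24.0 CPM, 2.45-fold, adjusted p = 0.00238). For *Peg12*, the relative *Frat1* had no counts in any library and *Frat2* had 251 in all, with a slope of -0.028 log2 per day that did not pass (adjusted p = 0.842). The makorin genes *Mkrn1* and *Mkrn2* were not called.

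Genes of the MAGEL2 pathway were expressed although *Magel2* itself was nearly absent. Of 11 genes for TRIM27, USP7, the WASH complex and the retromer, the coat that sorts proteins from endosomes, 3 rose (2 without the P0 libraries) and 0 fell, beside 12.1% of all genes rising and 14.1% falling (median slope 0.016 log2 per day). *Washc2* rose from 59.3 ± 25.6 CPM at P0 to 1540 ± 57.4 CPM at P21 (SD, n = 3), a fitted 37.1-fold rise (edgeR adjusted p = 2.99e-06). *Washc4* rose 3.56-fold (adjusted p = 0.0122) and the retromer gene *Vps26b* 3.03-fold (adjusted p = 5.1e-05). *Trim27*, the ligase partner itself, was not called.

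Among 16 other HECT ubiquitin ligases, 3 fell, 2 rose and 11 were not called, a share close to the 26.2% of all genes called in either direction. *Nedd4l* (4.26-fold, edgeR adjusted p = 0.000946), *Smurf1* (5.33-fold, adjusted p = 0.00636) and *Nedd4* (1.97-fold, adjusted p = 0.000236) fell. *Ube3b* (1.88-fold, adjusted p = 0.0431) and *Trip12* (1.70-fold, adjusted p = 0.0346) rose. The 2 rises were close to the threshold: 0 were called without P8 replicate 3, P14 replicate 1 or P21 replicate 3, and 1 was called without any other library except P0 replicate 1 and P14 replicate 2. Without the P0 libraries, 1 gene of the list fell and 1 rose.

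**Figure D4:**
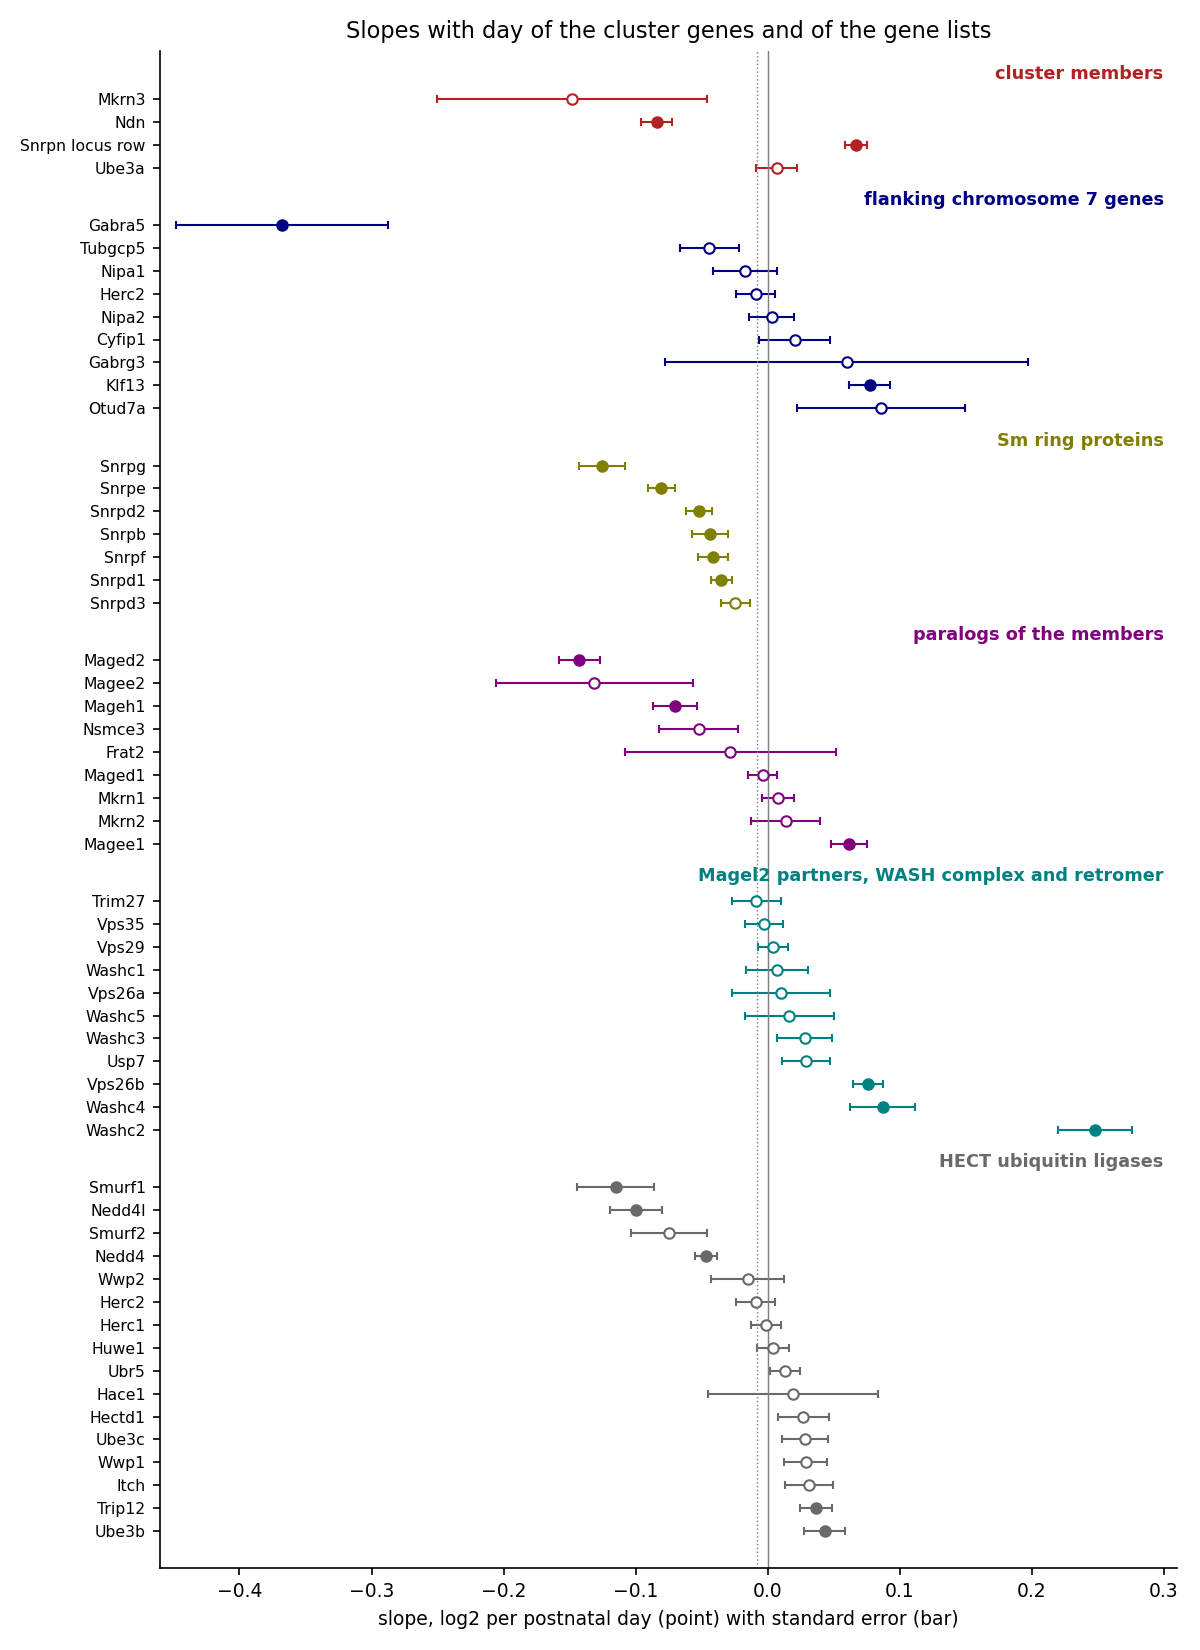
Slope with postnatal day in log2 per day (points, filled where the edgeR adjusted p is below 0.05) with its standard error (bars) for the 4 tested cluster rows and the tested genes of the 5 lists, with 1 flanking gene left out of the plot. The solid line marks 0 and the dotted line the median of all genes tested (-0.0077), and 6 of the 7 Sm ring genes lie left of it with filled points.

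The genes whose course was most like that of each cluster gene were taken by Pearson's r of log2 CPM over the 15 libraries, which share age and depth, so r is a description without a test. For *Peg12* these were *Cenpe* (r = 0.956), a kinesin of dividing cells, the selenoprotein gene *Selenoh* (0.944) and *Pafah1b3* (0.943), a subunit of an enzyme that inactivates platelet-activating factor. For *Ndn* they were *Trim46* (0.939), which organises axonal microtubules, and the translation factor genes *Eef1g* (0.931) and *Eif3h* (0.929). *Reep2* (0.975), which shapes the endoplasmic reticulum, the glycolytic gene *Aldoa* (0.975) and *Lancl1* (0.970) went with the Snrpn locus row. For *Mkrn3*, *Pdk1* (0.835) and *Atcay* (0.802) were among the 3 closest, and for *Ube3a* the closest were *Tmem143* (0.838), *Thrap3* (0.837) and *Chd6* (0.796). The *Ube3a* likenesses dropped to 0.579 to 0.654 by Spearman's rho, whereas those of the Snrpn locus row stayed at 0.954 to 0.971.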

How the data were processed

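Each value was a whole-number count of reads per Ensembl gene that the authors deposited without normalization, 1 table for each of 15 libraries (P0, P4, P8, P14 and P21, 3 biological replicates each). The submitters' processing notes name cutadapt 1.2.1, GSNAP and HTSeq 0.5.3p9. Per the authors' methods, trimmed reads were aligned to GRCm38/mm10, and of the uniquely mapping reads they counted only those lying fully within a feature. A read lying within several genes was thus lost.

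From these counts, genes were tested with edgeR 4.0.16 (R 4.3.3): quasi-likelihood fits on postnatal day as a number and on age as a factor, TMM scaling, filterByExpr by age (14293 genes) and Benjamini-Hochberg adjustment over all genes tested at 0.05. The biological coefficient of variation was 0.757. CPM used TMM effective library sizes. RPKM used merged M21 exon lengths and total counts on genes, without TMM scaling, so changes between ages are to be read from CPM and slopes. Reads outside genes were kept out. Total counts per library ran from 3409371 to 7814951. Simulated counts were used to test the fits.

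The members and gene lists were chosen with earlier results of these data known. Named beside the 6 members were the called list genes with the largest slopes (up to 4 each way), the 3 genes most alike each member (log2 CPM with 2 prior counts), *Snrpb*, PC markers and every gene between the outer members with 10 or more counts. Genes named outside this rule (*Gabrg3*, *Frat1*, *Frat2*, *Snrpd3* and others not called) were chosen after their values were seen. Of the genes these rules name, 1 is not reported here, nor is 1 flanking gene. Alternatives were DESeq2 1.42.0 (size factors, likelihood ratio test), limma-voom (limma 3.58.1), no filter, log2(day + 1), leaving out P0 or each library, and a replicate block.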

Additional observations from a re-analysis of the deposited data

How the results depend on the processing

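Limits: *Mkrn3* and *Magel2* had few counts and uneven replicates, and P0 cells were captured as clusters. The calls of *Ndn* (falling) and the Snrpn locus row (rising) held under all alternatives run, including each library left out in turn. For the step from P8 to P14, 1 member (the Snrpn locus row) was called, in place of 0, with DESeq2 size factors, limma-voom and the replicate block, and 0 to 1 with each library left out. Replicate numbers were shared between ages, but same-numbered libraries did not deviate together (mean correlation -0.0033 over 30 pairs), so they share only a number. With the replicate block that step was 0.57 (adjusted p = 0.0423), and no other call of a member changed.

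In the lists, falling flanking genes numbered 2 on the log2(day + 1) scale and 1 to 2 with single libraries left out, falling paralogs 1 without P0, and falling HECT ligases 1 without P0. Falling Sm ring genes numbered 4 without P0 and 5 to 6 with single libraries left out, and rising genes of the Magel2 partner list 2 without P0. Rising HECT ligases numbered 0 without the filter, 1 on the log2(day + 1) scale, 1 without P0, and 0 to 2 with single libraries left out. The cause was not tested. Values with no call turned sign for the step P8 to P14 of *Mkrn3* (-0.31 in limma-voom, -0.040 to 1.26 with single libraries left out) and of *Ndn* (-0.25 to 0.060), P14 to P21 of the Snrpn locus row (-0.057 to 0.22), and for *Ube3a* in slope (-0.015 on the log2(day + 1) scale, -0.00039 to 0.020 with single libraries left out), P4 to P8 (-0.15 to 0.51) and P14 to P21 (-0.065 to 0.24). The ratio of the Snrpn locus row to *Snrpb* kept r between 0.932 and 0.954 with single libraries left out. Leaving out P21 for this ratio and the length of the longest protein-coding transcript were alternatives added after the data were seen. The latter moved *Ube3a* 2.09-fold in RPKM, and no other gene. By Spearman's rho, 0 to 5 of the 10 genes most alike a member were shared with those by Pearson's r.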

Other observations

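Between the outer ends of *Ube3a* and *Peg12*, a stretch of 3235.8 kb, M21 annotates 267 genes, of which 241 were listed in the files and 227 of these had no count in any library. Most were small nucleolar RNA genes: 210 were listed, and 4 of them, *Snord64* among these, had 1 count each. Reads that mapped to several places or lay within several genes were not counted, so the lack of counts does not show that these RNAs were absent. Beside the cluster genes, 10 or more counts were found for *A230006K03Rik*, a long non-coding RNA gene with 68 counts in 6 libraries, of which 39 were in P21 replicate 2, and for the pseudogene *Gm7367* with 14 counts in 9 libraries and at most 3 in any.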
